A study of Arabidopsis thaliana with 2 samples.

Results

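The LCR (low-molecular-weight cysteine-rich) genes of Arabidopsis thaliana were taken as all protein-coding genes of chromosomes 1 to 5 whose symbol in the RefSeq gene table is LCR plus a number. This gave 80 of 27444 protein-coding genes. One more gene of that name, LCR71, is annotated as a transcribed pseudogene and was left out. A gene was counted as carrying a peak of TGA1-GFP, a fusion of the transcription factor TGA1 with green fluorescent protein, when the midpoint of a peak lay inside it or within 1000 bp of it.

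Both libraries came from roots of TGA1-GFP plants cross-linked with formaldehyde, 1 made with a GFP antibody and 1 with IgG, an antibody without a stated target that serves as background. The sources used here do not give the promoter that drives the fusion, the plants' age or their growth conditions. The measurement was 1 list of 8002 peaks with chromosome, start and end, without peak height, p-value or reads, so the depth is unknown and no value of the IgG library can be set beside a peak. Each antibody had 1 library and no replicate. The family was chosen with its share of genes with peaks known, so all counts below are descriptions without a test.

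LCR genes encode small peptides, predicted to be secreted, whose conserved cysteines form disulfide bonds. They resemble plant defensins, which act against fungi, and pollen coat peptides of Brassica. Many defensin-like genes of Arabidopsis are known for expression in flowers, pollen or seeds rather than in roots. TGA1 is a bZIP transcription factor known for roles in nitrate responses of roots and in salicylic acid-dependent immunity.

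A peak was counted at 7 of 80 members, 8.75%, against 24.6% of all protein-coding genes. The marked members were LCR8, LCR12, LCR23, LCR32, LCR53, LCR75 and LCR85, each with 1 peak, and the other 73 had none. The share of all genes is the background of the count, and since the members were chosen on this count nothing is read from the difference. The outermost marked member was LCR85, with the midpoint 853 bp away, and the nearest unmarked one was LCR52, at 1009 bp.

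The most direct placements were in a group of 4 LCR genes on chromosome 3, where LCR8 and LCR53 were the only members with a midpoint inside the gene. Those 2 made 2.50% of members, against 6.69% of all protein-coding genes. The peak at LCR8 (AT3G61172, chromosome 3, 22641713 to 22642182, TAIR10.1) ran from 22641739 to 22642210 and covered 444 bp of this 470 bp gene. The peak at LCR53 (AT3G61177, 22644364 to 22644819) ran from 22644269 to 22644695 and covered 332 bp of the gene. These peaks were 472 and 427 bp wide and stood at places 4083 and 2009 of the list.

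The peak in LCR8 was also within 615 bp of AT3G61170, a protein-coding gene that the table does not name. For the peak in LCR53, no other annotated gene lay within 1000 bp, although AT3G61180 lay just beyond, at 1010 bp. LCR52, which lies between both, had no midpoint within 1000 bp. LCR54, the last of the 4, had its nearest midpoint 1991 bp away, in a 1212 bp peak whose midpoint fell on the outermost base of BAP1, a gene for a partner of the copine BON1.

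At LCR32 and LCR12 the midpoint lay outside annotated genes and nearer to the LCR gene than to any other. LCR32 (AT2G28405, chromosome 2, 12153138 to 12154126) had a 489 bp peak at 12152148 to 12152636, at place 2033, and the gene lay 746 bp from its midpoint. No other annotated gene lay within 2000 bp of that midpoint. LCR12 (AT5G48905, chromosome 5, 19831255 to 19831917) had a 404 bp peak at 19830658 to 19831061, at place 7091, with its midpoint 396 bp away. That midpoint was also 888 bp from AT5G07295, a long non-coding RNA gene, while the nearest other protein-coding gene was 1719 bp away.

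At the other 3 marked members a neighbour was nearer to the midpoint than the LCR gene. The 488 bp peak at LCR75 (AT2G31957, chromosome 2, 13587675 to 13588258), spanning 13586747 to 13587234 at place 4379, lay 287 bp from CNX2 and 685 bp from LCR75. CNX2 encodes an enzyme of the first step of molybdenum cofactor synthesis, and this cofactor is used by nitrate reductase. The 271 bp peak at LCR23 (AT4G29273, chromosome 4, 14425441 to 14425857), spanning 14424880 to 14425150 at place 6395, lay 117 bp from AT4G29270 and 426 bp from LCR23, and overlapped 19 bp of AT4G29270. The 292 bp peak at LCR85 (AT4G22210, chromosome 4, 11752395 to 11752816), spanning 11751397 to 11751688 at place 4942, lay 844 bp from KT2/3 and 853 bp from LCR85, a difference of a few bases. KT2/3 encodes the potassium channel AKT2 of the phloem.

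In all, 5 of the 7 peaks were within reach of another annotated gene, 4 of them of another protein-coding gene. Of the 6200 peaks at protein-coding genes, 44.5% were within reach of more than 1 annotated gene. The count for members depended on the setting: it was 1 of 4 peaks with a reach of 500 bp and 0 of 2 with the earlier of 2 equal parts of the list. The 2 peaks in reach of a single gene were those of LCR53 and LCR32. The table gives no strand, so the start and the end of these genes could not be told apart. It holds no exons either, and whether the midpoints in LCR8 and LCR53 fell in exons, introns or UTRs is unknown.

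**Figure D1:**
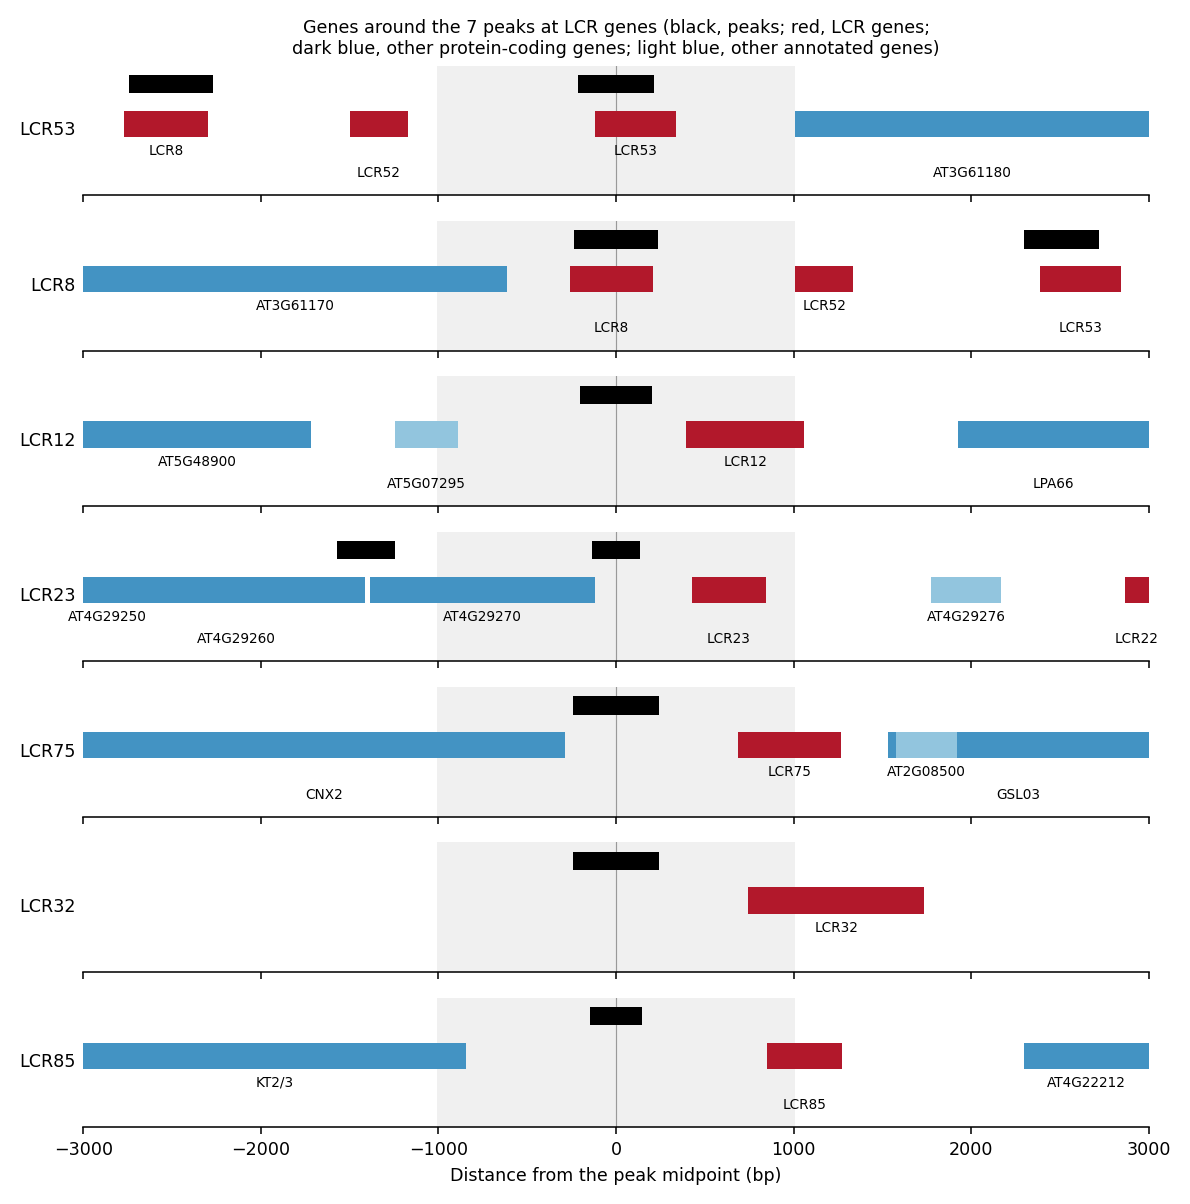
Genes around each peak at a LCR gene, 1 panel per member, against the distance from that peak's midpoint in bp. Black bars are peaks, red bars LCR genes, dark blue bars other protein-coding genes, light blue bars other annotated genes, and the grey band marks 1000 bp on both sides. LCR53 and LCR8 lie under their peaks, LCR32 stands alone, and at LCR75, LCR23 and LCR85 a neighbour is nearer to the midpoint.

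The peaks at members were neither the widest nor the first of the list. Their widths ran from 271 to 489 bp with a median of 427 bp, close to the median of 428 bp over the 6200 peaks at protein-coding genes, of which 38.8% were wider than 489 bp. Their places ran from 2009 to 7091, and 23.7% of the peaks at protein-coding genes stood before place 2009. What the order of the list stands for is not stated in it. With the wider of 2 equal parts of the peaks, 3 members (3.75%) were marked, against 13.0% of all protein-coding genes. With the earlier of 2 equal parts of the list it was 2 members (2.50%), against 13.2%.

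Another 11 members had their nearest midpoint from 1001 to 2000 bp away, and 9 of these peaks were in reach of another protein-coding gene. Over all 8002 peaks, 77.5% were in reach of a protein-coding gene, so nothing about the members is read from this count. The peaks of this band without such a neighbour were those near LCR16 and LCR35. The peak near LCR16 (AT1G49435, chromosome 1, 18299430 to 18299862) was 734 bp wide, stood at place 418, and had its midpoint 1055 bp away with no other annotated gene within 2000 bp. The peak near LCR35 (AT2G22121, chromosome 2) was 281 bp wide at place 7074, with its midpoint 1041 bp away.

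In the others of this band the peak was in reach of a gene outside the family. At LCR52 (1009 bp) the midpoint lay inside LCR8 and was also in reach of AT3G61170. At LCR54 (1991 bp) the peak was the one at BAP1. At LCR82 (1104 bp) it lay inside NUDT5, a nudix hydrolase gene, and at LCR37 (1185 bp) near XTH2, which encodes an enzyme that remodels cell wall xyloglucan. At LCR31 (1415 bp) it lay inside a gene annotated as miscellaneous RNA, and 146 bp from DYL1, a dormancy-associated gene. At LCR19 (1475 bp) a 944 bp peak was 991 bp from ARF16, an auxin response factor gene. For LCR42 (1615 bp), LCR61 (1641 bp) and LCR80 (1754 bp) the neighbour in reach carries no name in the table.

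The remaining 62 members had no midpoint within 2000 bp. The median distance from an LCR gene to the nearest midpoint was 5379.5 bp (quartiles 2567 and 13158 bp), against 4883.5 bp (1049 and 12215 bp) for all protein-coding genes. The medians were close. The lower quartiles were far apart, but they follow from the count that chose the members, so nothing is read from them. The 3 most distant members were LCR29 at 568289 bp, LCR47 at 278256 bp and LCR40 at 109956 bp, all without a peak within 50 kb. LCR33 and LCR84 also had no peak within 50 kb of the gene's centre, at 107072 and 54055 bp from the nearest midpoint.

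**Figure D2:**
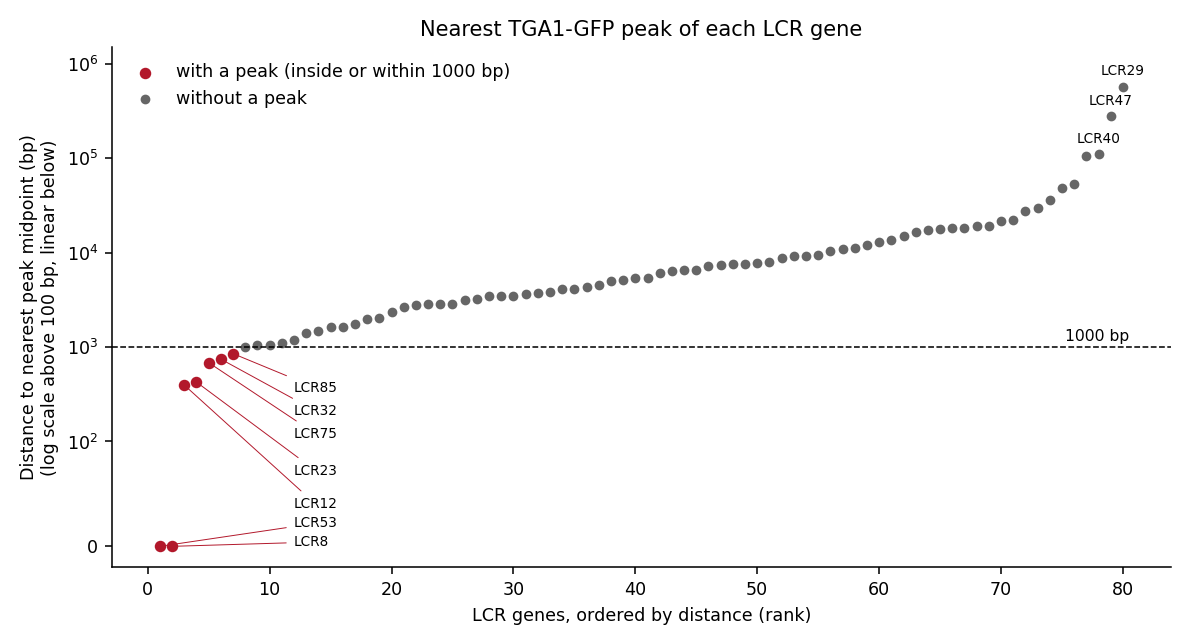
Distance in bp from each of the 80 LCR genes to its nearest peak midpoint, in rank order. The axis is logarithmic above 100 bp and linear below, the dashed line marks 1000 bp, and red points are the 7 genes with a peak. LCR8 and LCR53 sit at 0, and LCR29 is farthest at 568289 bp.

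Plant defensins are secreted antimicrobial peptides, and 5 LCR genes carry a PDF name as synonym. LCR66 (PDF2.4) had its nearest midpoint 5383 bp away and LCR69 (PDF2.2) 6446 bp away. LCR67 (PDF1.1) was 11332 bp from a midpoint, LCR72 (PDF2.6) 15195 bp and LCR68 (PDF2.3) 18165 bp. A peak was counted at 0 of these 5 genes, against 24.6% of all protein-coding genes, and with 5 genes little can be read from this. Within 50 kb they had 4 to 9 peaks each. The peak nearest to LCR67 was 1546 bp wide at place 366, but far outside the reach.

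LCR genes lie in groups, and neighbours in a group are not independent. Counting members with gaps of at most 10 kb as 1 group, 38 of them fell into 14 groups and 42 stood alone, which made 56 separate places. A peak was counted at a member of 3 of these groups. The largest group, 7 genes on chromosome 4 (14425441 to 14436717) from LCR23 to LCR25, had 1 marked gene, LCR23, and no midpoint between its ends, so its other 6 genes were 2867 to 8801 bp from a peak. The group of LCR61, LCR63, LCR59 and LCR19 on the same chromosome had its nearest midpoint 1475 bp away. LCR68, LCR72 and LCR73 on chromosome 2 were 13603 to 18165 bp from a midpoint. Only the group of LCR8 held more than 1 marked gene.

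The following shares by distance extend the count that chose the members and are a description as well. Within 500 bp outside the gene, 2 members (2.50%) had their nearest midpoint, against 12.4% of all protein-coding genes. From 501 to 1000 bp it was 3 members (3.75%) against 5.52%. From 1001 to 2000 bp it was 11 members (13.8%) against 7.24%. Summed from the gene outwards, 22.5% of members and 31.8% of all genes had a midpoint within 2000 bp. Within 5000 bp, 46.2% of members and 50.6% of all genes had been reached, and within 10000 bp 68.8% and 69.6%. Within 50000 bp it was 93.8% of members and 96.8% of all genes.

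**Figure D3:**
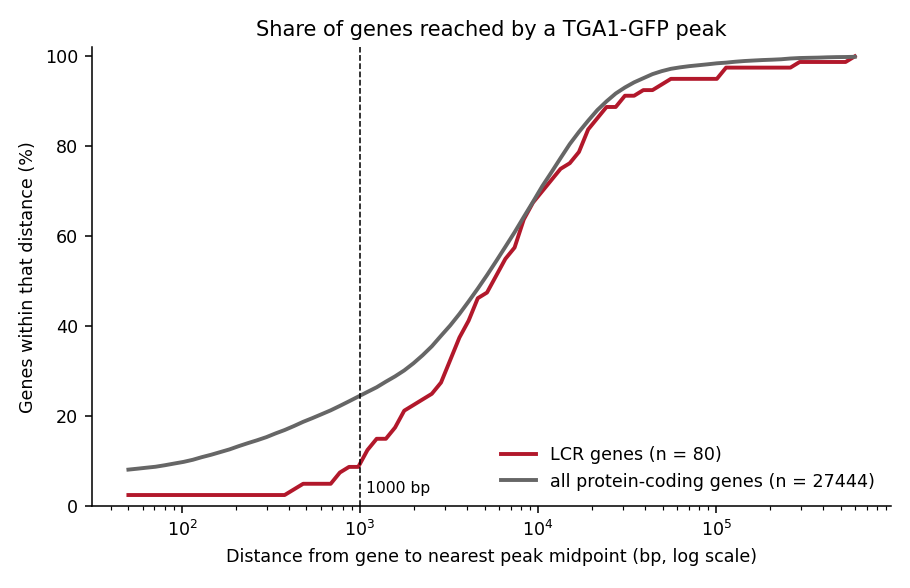
Percentage of genes whose nearest peak midpoint is within a given distance in bp (log scale), for the LCR genes in red and all protein-coding genes in grey. The red curve is at 8.75% and the grey at 24.6% at 1000 bp (dashed line), and they meet near 10000 bp, at 68.8% and 69.6%.

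Counted per length of sequence, midpoints within 1000 bp outside LCR genes were sparser than those outside all protein-coding genes. These bands hold peaks of the count that chose the members, so this is a description only. Each midpoint was counted for every gene in whose band it fell, so neighbouring members can share a midpoint. Inside LCR genes there were 3.73 midpoints per 100 kb, which rests on 2 midpoints, against 3.14 inside all protein-coding genes. In the first 250 bp outside, the LCR genes had 0 midpoints in 40 kb of sequence, whereas all protein-coding genes had 18.1 per 100 kb. From 251 to 500 bp the densities were 5.0 (2 midpoints) against 11.7 per 100 kb, and from 501 to 1000 bp 3.75 (3 midpoints) against 8.35. Beyond that they were 8.12 against 7.10 per 100 kb from 1001 to 2000 bp, 7.29 against 7.81 from 2001 to 5000 bp, and 9.75 against 7.79 from 5001 to 10000 bp. With so few midpoints in each inner band, single values for the LCR genes are loosely set.

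**Figure D4:**
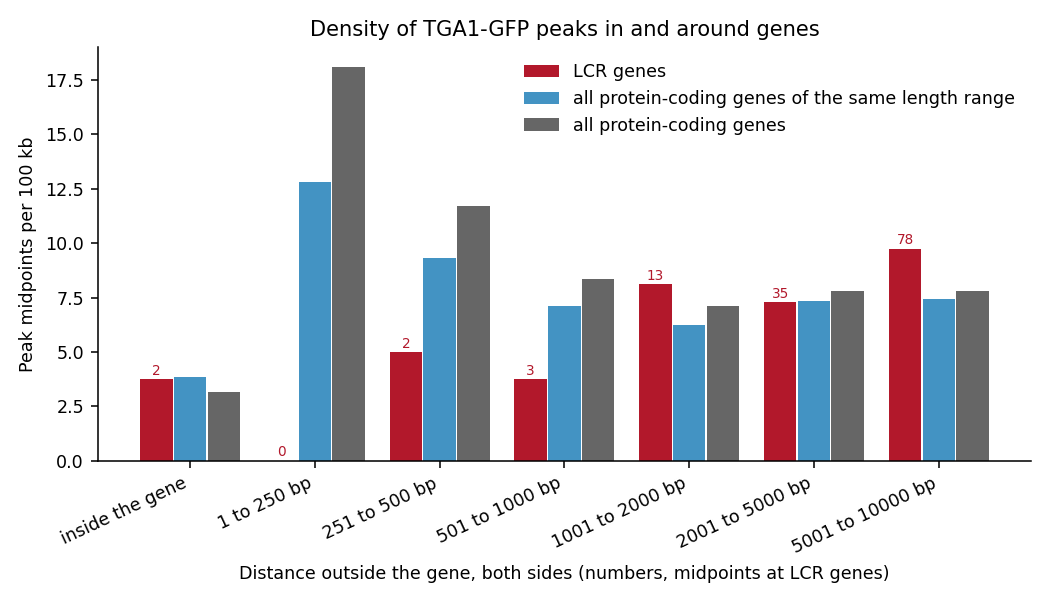
Peak midpoints per 100 kb of sequence inside genes and in bands of distance on both sides, for LCR genes (red, with the number of midpoints above each bar), protein-coding genes of the same length range (blue) and all protein-coding genes (grey). The grey bars peak at 18.1 in the first 250 bp, where the red value is 0. Beyond 1000 bp the red bars run from 7.29 to 9.75 and the grey bars from 7.10 to 7.81.

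LCR genes are short compared with all protein-coding genes. Their median length was 584.5 bp (274 to 1558 bp), against 2078 bp for all protein-coding genes. The 8.75% of members with a peak stood against 18.0% of the 8438 protein-coding genes within the same length range, and against 24.6% of all. The 8438 genes were limited to this range but not matched in length within it. In the first 250 bp outside, where LCR genes had 0 midpoints, those 8438 genes had 12.8 per 100 kb. With the midpoint counted within 1500 bp of the gene's centre, whatever its length, the count was 11 of 80 members (13.8%), against 14.7% of all protein-coding genes. Such a window takes in more flank at short genes and more gene body at long ones, so the shares rest on unlike sequence. Whether gene length has a part in the low count was not tested.

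Within 50 kb of the gene's centre, members had a median of 6.5 peaks (quartiles 3.75 and 10.25), against 7 (4 and 11) for all protein-coding genes. No peak lay within 50 kb of 5 members (6.25%), against 3.36% of all protein-coding genes. With 3 or 4 peaks there it was 18.8% of members, against 13.5% of all. The share of members was also higher with 9 or 10 peaks (16.2% against 13.5%), and slightly higher with 1 or 2. It was lower with 5 to 8 peaks and with 11 or more (25% against 27.1%). The number of protein-coding genes in the same stretch had a median of 26 around members and 27 around all genes. The gene-free sequence on both sides summed to a median of 2015.5 bp at members and 1360 bp at all genes. Of 118 protein-coding genes directly next to an LCR gene and not themselves LCR genes, 32 carried a peak, 27.1%, against 24.6% of all. Of these 32 neighbours, 28 had no peak that was also counted at an LCR gene. For 62 of the 73 unmarked members, 84.9%, the nearest peak was in reach of a protein-coding gene outside the family. Of all 8002 peaks, 77.5% were in reach of a protein-coding gene. The first share counts members, of which several can have the same nearest peak, and the second counts peaks.

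Of the 40 members with 6 or fewer peaks within 50 kb, 0 were marked, against 14.1% of all protein-coding genes with so few. This share and those by chromosome below split the count that chose the members, so nothing is read from them. Among all protein-coding genes the share with a peak rose with the number of peaks within 50 kb. It was 7.04% with 1 or 2 peaks and 39.2% with 11 or more. The peak at the gene is itself part of this number. By chromosome, 0 of 6 members were marked on chromosome 1, against 25.1% of its protein-coding genes, and 2 of 22 on chromosome 2, against 24.1%. On chromosome 3 it was 2 of 17, against 24.9%, on chromosome 4 2 of 23, against 24.5%, and on chromosome 5 1 of 12, against 24.1%.

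Other families of small secreted peptides varied in how many genes carried a peak. The LCR genes were chosen with their share known, so their place among the families is not a result. SCRL genes encode cysteine-rich peptides that resemble SCR, the pollen ligand of self-incompatibility in Brassica, and 3 of 27 (11.1%) were marked. Of 8 plant defensin genes with a PDF symbol, 1 was marked (12.5%). Of 34 RALF and RALFL genes, whose peptides act on cell growth through receptor kinases, 7 were marked (20.6%). Of 6 GASA genes, a gibberellin-responsive cysteine-rich family, 1 was marked, and of 6 LTP genes for lipid transfer proteins none. CLE genes, which encode short signalling peptides without the cysteine framework, had 11 of 30 marked (36.7%). All of these stand against 24.6% of all protein-coding genes, and no difference between families was tested.

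LCR, SCRL and RALF genes were of like length, while CLE genes were longer and nearer to peaks. The median length was 584.5 bp for LCR genes, against 582 bp for SCRL, 575 bp for RALF and RALFL and 834 bp for CLE genes. The median distance to the nearest midpoint was 5379.5 bp for LCR genes, against 6039 bp for SCRL, 4884.5 bp for RALF and RALFL and 2336.5 bp for CLE genes. The LCR value lay between those of SCRL and RALF genes. PDF, GASA and LTP genes had median lengths of 702.5, 1027.5 and 1012.5 bp and median distances of 7268.5, 5308 and 9453.5 bp. These distances extend the count that chose the members and are a description only. The LCR genes and the RALF and RALFL genes had the same median of 6.5 peaks within 50 kb.

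**Figure D5:**
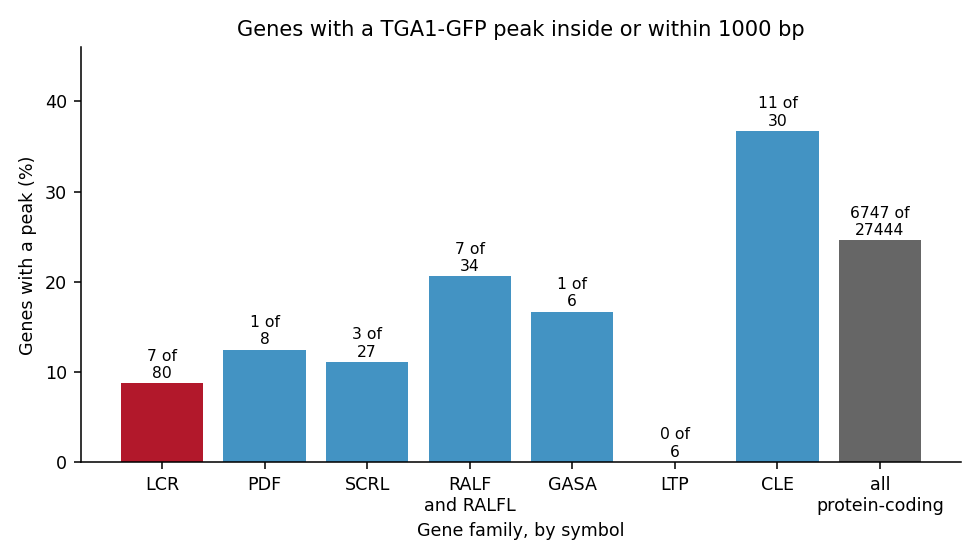
Percentage of genes with a TGA1-GFP peak inside the gene or within 1000 bp for LCR genes (red), 6 other families of small peptides (blue) and all protein-coding genes (grey), with the counts above the bars. LCR genes are at 8.75%, CLE genes at 36.7%, and all protein-coding genes at 24.6%.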

How the data were processed

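The submitters' processing notes name Bowtie2, MACS2 and build TAIR10; the sources used here give no versions or thresholds and do not state the role of the IgG library. The authors' deposited list has no header and holds positions only, the start and end of each peak in bp. Starts were taken as 0-based, as in BED files, and raised by 1 for printing. Genes came from a RefSeq table of TAIR10.1, which keeps the nuclear chromosomes of TAIR10. Distances run from the peak midpoint to the nearer gene end, 0 meaning inside. No promoter or protein sequences were used here, so the planned motif and protein descriptions were not made.

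Members, lists and rules were chosen with earlier results of these data known. Named are all marked members, those with a midpoint 1000 to 2000 bp away, the 3 farthest, those with a PDF synonym, and genes sharing a peak. LCR33, LCR84, AT3G61180 and members named for their group were added after their values were seen. PDF genes were limited to symbols with a decimal point after the symbols were seen; with any PDF plus number, which takes in unrelated genes, it was 2 of 13. EPF, THI, TI and MEG families had fewer than 5 members. The comparisons with genes of LCR length, with the gene's centre, with density bands and with neighbours were also added then. No test was made; code was checked on simulated data. Python 3.11.15, numpy 2.4.6, pandas 2.3.3 and matplotlib 3.10.9 were used.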

Additional observations from a re-analysis of the deposited data

How the results depend on the processing

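The count of marked LCR genes followed the reach. It was 4 of 80 with 500 bp (19.1% of all protein-coding genes), 18 with 2000 bp (22.5% against 31.8%), 2 with the midpoint inside the gene (2.50% against 6.69%), 11 with any base of the peak in reach (26.7% of all genes) and 11 within 1500 bp of the centre. It was 3 with the wider of 2 equal parts of the peaks, 2 with the earlier part of the list, and 4 (18.6% of all genes) when a peak went to its nearest protein-coding gene. The share was below that of all protein-coding genes under each of these settings, though close within 1500 bp of the centre (13.8% against 14.7%). All of them reuse the peak list and genes of the count that chose the members, so nothing is read from this. The count moved by less than 1.5 times with the zone from 1000 bp outside to 200 bp inside (6). The same held with 4 synonym members (7 of 84), 1 gene per group (5 of 56) and starts counted from 1 (7). All marked protein-coding genes numbered 1835 (inside only), 3566 (wider part), 3613 (earlier part) and 4040 (centre), against 6747. Peaks at members shared with a neighbour were 1 of 4 with 500 bp, 15 of 18 with 2000 bp, 0 of 2 inside only, 2 of 3 in the wider part and 0 of 2 in the earlier part. By their construction these settings take in more or less sequence, use fewer peaks, or give a shared peak to 1 gene. Median distance stayed within 1.5 times. The motif alternative was not run. No paired analysis was possible because each antibody had 1 library.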
